A study of Mus musculus with 4 samples.

Results

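In inguinal white adipose tissue (ingWAT), the subcutaneous fat of the mouse groin, transcripts of the mitochondrial ATP synthase did not all differ in the same direction between *Oct3*-deficient and control animals. The 10 genes described here, of 19030 with values, were *Atp5g1*, *Atp5g2* and *Atp5g3* for the membrane ring, *Atp5a1* and *Atp5b* for the catalytic head, *Atp5c1* and *Atp5d* for the central stalk, *Atp5j* for the peripheral stalk, *Atp5j2* for the membrane part and *Atpif1* for the inhibitory factor. They were picked by symbol because their levels differed between the genotypes in opposite directions, so their differences between genotypes are given as a description with standard errors. Calls of the fit over all genes are counted for them only to be set beside the share of all genes called, and nothing rests on them. RNA was sequenced from 2 libraries of adipose-specific *Oct3* KO mice (cKO) and 2 libraries of Ctrl mice, all from C57BL/6 animals 3 months of age that were kept at 4°C, and the comparison asks how the tissue's transcripts differ when adipocytes lack Oct3, a transporter that takes up norepinephrine. In cKO mice a floxed *Oct3* allele was recombined by Adiponectin-Cre, which acts in adipocytes, so other cells of the depot kept the gene. The number of animals behind each library is not given in the sources used here, and p-values therefore measure the spread between these libraries only. *Slc22a3*, which encodes Oct3, was at 16.95 and 17.68 FPKM in Ctrl and at 9.07 and 9.50 FPKM in cKO (log2 difference -0.83, SE 0.0660, adjusted p = 0.000439 by limma with Benjamini-Hochberg adjustment).

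The ATP synthase makes ATP from the proton gradient that the respiratory chain builds across the inner mitochondrial membrane. Protons turn a ring of c subunits in the membrane, the ring turns the central stalk, the stalk drives the catalytic head of alpha and beta subunits, and a peripheral stalk holds the head still. In thermogenic adipocytes Ucp1 lets protons back without passing through the enzyme, and brown fat is known for little ATP synthase beside an abundant respiratory chain, with the supply of subunit c from *Atp5g1* described as limiting.

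The ring subunit is encoded by a gene family with different import leaders and the same mature protein. In the GRCm38 annotation *Atp5g1* lies on the minus strand at chr11:96072793-96075694, *Atp5g2* on the minus strand at chr15:102662868-102671047 and *Atp5g3* on the minus strand at chr2:73908447-73912464, each with 5 exons. The translated GENCODE coding sequences were 136, 146 and 141 residues long, and the last 78 residues were identical in all 3. The residues before them, which hold the leader that is cut off after import, were identical in 37.5% of alignment columns for *Atp5g1* and *Atp5g2*, in 46.0% for *Atp5g1* and *Atp5g3* and in 39.1% for *Atp5g2* and *Atp5g3*. The coding bases of the shared stretch are shown because they decide which short reads can be assigned to which ring gene. Capitals mark the 63 of 234 bases that differ among the genes.
Atp5g1: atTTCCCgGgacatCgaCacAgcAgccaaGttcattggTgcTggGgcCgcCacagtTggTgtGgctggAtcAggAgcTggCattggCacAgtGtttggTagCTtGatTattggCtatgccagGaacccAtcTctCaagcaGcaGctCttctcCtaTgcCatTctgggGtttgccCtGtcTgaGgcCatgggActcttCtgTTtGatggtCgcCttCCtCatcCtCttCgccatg
Atp5g2: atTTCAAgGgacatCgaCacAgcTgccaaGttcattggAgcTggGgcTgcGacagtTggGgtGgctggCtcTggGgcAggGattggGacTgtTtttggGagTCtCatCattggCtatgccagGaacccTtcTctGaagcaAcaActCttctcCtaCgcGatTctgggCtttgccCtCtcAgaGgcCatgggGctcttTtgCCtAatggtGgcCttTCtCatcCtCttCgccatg
Atp5g3: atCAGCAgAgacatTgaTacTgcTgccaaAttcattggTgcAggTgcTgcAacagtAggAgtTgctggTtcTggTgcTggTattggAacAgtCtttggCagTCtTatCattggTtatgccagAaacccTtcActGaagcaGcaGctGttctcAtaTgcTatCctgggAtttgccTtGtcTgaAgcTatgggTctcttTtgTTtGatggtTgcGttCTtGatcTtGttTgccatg
*Atp5g1* and *Atp5g2* differed at 36 of these bases, with no identical run longer than 20 bases. *Atp5g1* and *Atp5g3* differed at 50 bases with runs of at most 11, and *Atp5g2* and *Atp5g3* at 53 bases with runs of at most 8. In this stretch a 50-base read, the length used in the study, therefore always covered bases that tell the ring genes apart. Other annotated genes that share sequence with *Atp5g1* and *Atp5g2* are given further below.

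The ring genes differed from each other in level and in direction. *Atp5g3*, the most abundant of the 3, was at 545.2 and 519.4 FPKM in Ctrl and at 408.8 and 418.4 FPKM in cKO. Both cKO libraries were below both Ctrl libraries, and the mean was 22.3% lower, with a log2 difference of -0.36 (SE 0.0647, n = 2 and 2). *Atp5g2* went from 301.4 and 283.5 FPKM in Ctrl to 345.0 and 330.2 FPKM in cKO. Its cKO libraries both lay above Ctrl, by 15.5% of the Ctrl mean, with a log2 difference of 0.21 (SE 0.0647). *Atp5g2* was not called in the fit over all genes. *Atp5g1*, the least abundant ring gene, was at 62.71 and 49.09 FPKM in Ctrl and at 36.79 and 42.29 FPKM in cKO. Its groups did not overlap either, and the mean was 29.3% lower, with a log2 difference of -0.48 (SE 0.119). The Ctrl libraries of *Atp5g1* lay 0.35 apart on the log2 scale, the widest gap between libraries of the same genotype among the 10 genes. Without Ctrl replicate 1 its log2 difference was -0.31 and without Ctrl replicate 2 it was -0.66. All log2 differences are cKO minus Ctrl on log2(FPKM + 1).

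Because the mature proteins are the same, the summed level of the ring genes is also of interest. The sum was 909 and 852 FPKM in Ctrl and 791 FPKM in each cKO library, so the pooled ring transcripts were lower by a smaller proportion than *Atp5g1* or *Atp5g3* alone. The makeup of the pool differed as well. *Atp5g2* made up 33.1% and 33.3% of the ring FPKM in Ctrl and 43.6% and 41.8% in cKO. *Atp5g3* made up 60.0% and 61.0% in Ctrl and 51.7% and 52.9% in cKO. *Atp5g1* made up 6.90% and 5.76% in Ctrl and 4.65% and 5.35% in cKO. The ratio of *Atp5g2* to *Atp5g3* was 0.553 and 0.546 in Ctrl and 0.844 and 0.789 in cKO, whereas the ratio of *Atp5g1* to *Atp5g3*, the pair that was lower in cKO, overlapped between genotypes at 0.115 and 0.0945 in Ctrl and 0.0900 and 0.101 in cKO.

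**Figure D1:**
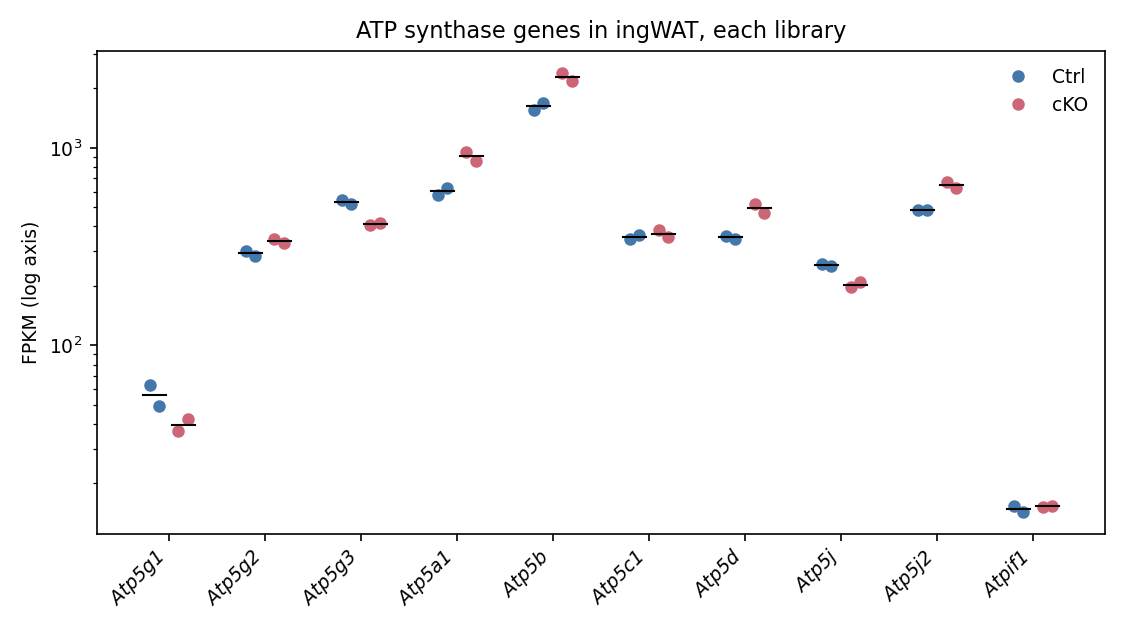
FPKM of the 10 genes in each library on a log axis, with points for the libraries (replicate 1 left, replicate 2 right) and short bars for the mean of 2. *Atp5g1*, *Atp5g3* and *Atp5j* sat lower in cKO, *Atp5a1*, *Atp5b*, *Atp5d*, *Atp5j2* and *Atp5g2* sat higher, and *Atp5c1* and *Atpif1* overlapped.

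The catalytic head showed the opposite direction. *Atp5b*, which encodes the beta subunit where ATP is formed, was the most abundant of the 10 genes, at 1561 and 1694 FPKM in Ctrl and 2403 and 2185 FPKM in cKO. The cKO libraries were both above Ctrl, with a ratio of means of 1.41 and a log2 difference of 0.49 (SE 0.0943). *Atp5a1*, which encodes the alpha subunit that alternates with beta in the head, was at 577.0 and 626.6 FPKM in Ctrl and at 952.4 and 860.1 FPKM in cKO. The mean was 50.6% higher, the largest positive difference among the 10 genes, with a log2 difference of 0.59 (SE 0.0832). The alpha and beta transcripts kept a narrow ratio, 0.370 in each Ctrl library and 0.396 and 0.394 in cKO. The proteins themselves are assembled in equal numbers.

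The central stalk genes parted from each other. *Atp5d*, which encodes the delta subunit at the foot of the stalk, was at 359.4 and 345.5 FPKM in Ctrl and at 519.3 and 468.4 FPKM in cKO. Both cKO libraries were above Ctrl, and the mean was 40.1% higher (log2 difference 0.48, SE 0.0736). *Atp5c1*, which encodes the gamma subunit that forms the rotating shaft, was at 347.0 and 360.3 FPKM in Ctrl and at 381.9 and 352.7 FPKM in cKO. Here the groups overlapped, with a log2 difference of 0.05 (SE 0.0680). *Atp5d* and *Atp5c1* were thus at about the same level in Ctrl, with a ratio of 1.04 and 0.959, and apart in cKO, with a ratio of 1.36 and 1.33. *Atp5c1* relative to *Atp5b* was at 0.222 and 0.213 in Ctrl and at 0.159 and 0.161 in cKO.

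The remaining subunit genes also differed in direction. *Atp5j*, which encodes coupling factor 6 of the peripheral stalk, was at 257.4 and 251.2 FPKM in Ctrl and at 197.1 and 209.1 FPKM in cKO. Both cKO libraries were below Ctrl, with a mean 20.1% lower and a log2 difference of -0.32 (SE 0.0609). *Atp5j2*, which encodes subunit f in the membrane, was at 486.1 and 484.0 FPKM in Ctrl and at 671.3 and 624.2 FPKM in cKO. Both cKO libraries were above Ctrl, and the mean was 33.5% higher (log2 difference 0.42, SE 0.0690). The ratio of *Atp5j* to *Atp5j2* was 0.529 and 0.519 in Ctrl and 0.294 and 0.335 in cKO. *Atpif1*, whose product blocks the enzyme from splitting ATP when the gradient collapses, was at 15.39 and 14.40 FPKM in Ctrl and at 15.18 and 15.41 FPKM in cKO. Its groups overlapped, with a log2 difference of 0.04 (SE 0.0650). Per 1000 FPKM of the summed catalytic genes, *Atpif1* was at 7.20 and 6.21 in Ctrl and at 4.52 and 5.06 in cKO.

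Counted over the 10 genes, 5 had both cKO libraries above Ctrl, 3 had both below and 2 overlapped, where 66.5% of the 12658 genes that averaged 1 FPKM or more had groups that did not overlap. At an adjusted p under 0.05 by limma with Benjamini-Hochberg adjustment, 4 of the 10 were called higher and 3 lower, where 25.8% of all genes tested were called, 12.0% higher and 13.8% lower. Since the genes were picked on this contrast, their counts carry no information beyond the values above. The 7 genes kept their sign in each alternative run, which leaving out a library could not change because their groups did not overlap. Filters, the replicate block and the trend setting do not alter the log2 difference of a gene either. However, 0 of the 7 stayed called without Ctrl replicate 1, and only *Atp5a1* and *Atp5g1* stayed called without Ctrl replicate 2. After quantile normalization the log2 differences were 0.28 for *Atp5b* and 0.21 for *Atp5j2*, both no longer called, 0.30 for *Atp5d*, 0.10 for *Atp5g2* and -0.55 for *Atp5g3*.

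Within a library, the ratio of ring to catalytic transcripts does not depend on a scaling factor for the library. The summed catalytic genes were at 2140 and 2320 FPKM in Ctrl and at 3360 and 3050 FPKM in cKO. Ring FPKM over catalytic FPKM was 0.425 and 0.367 in Ctrl and 0.236 and 0.260 in cKO, with means of 0.396 ± 0.0412 and 0.248 ± 0.0170 (SD, n = 2 each). The cKO ratio was 0.625 times that of Ctrl. Over the 18 nuclear genes counted to the complex, *Atp5s* included, the summed level was 7310 and 7530 FPKM in Ctrl and 9550 and 8960 FPKM in cKO. The ring genes made up 12.4% and 11.3% of that sum in Ctrl and 8.28% and 8.83% in cKO, and the catalytic genes 29.3% and 30.8% in Ctrl and 35.1% and 34.0% in cKO. The mitochondrially encoded subunits were not analysed here.

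**Figure D2:**
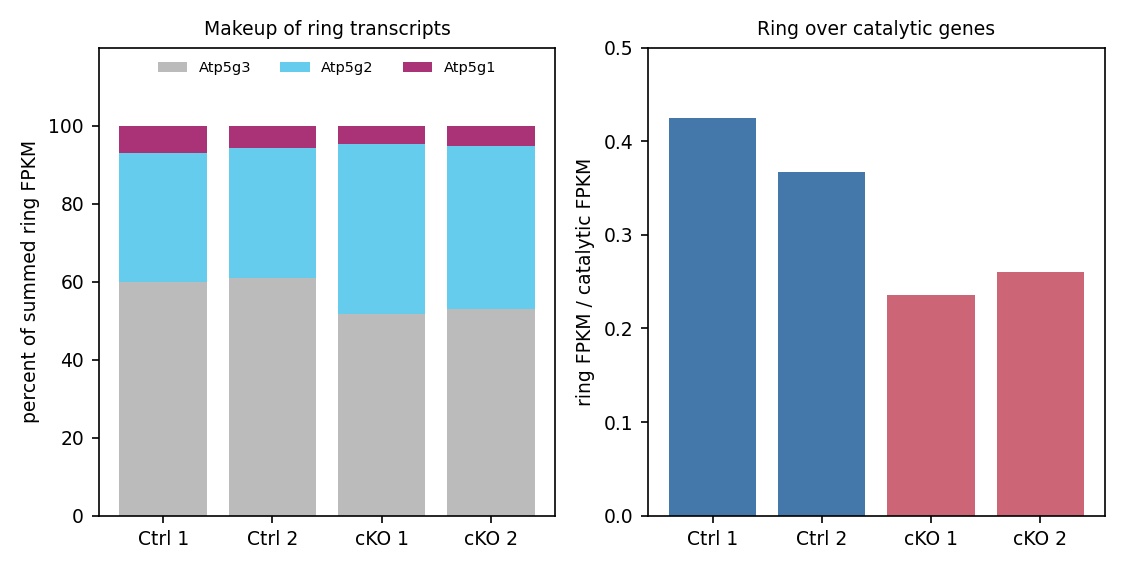
Left, percent of the summed ring FPKM contributed by *Atp5g3*, *Atp5g2* and *Atp5g1* in each library. Right, summed ring FPKM over summed FPKM of *Atp5a1* and *Atp5b*, which was 0.425 and 0.367 in the Ctrl libraries and 0.236 and 0.260 in the cKO libraries.

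The order of the levels differed between genotypes in the middle of the range. In Ctrl the order from the highest was *Atp5b*, *Atp5a1*, *Atp5g3*, *Atp5j2*, *Atp5c1*, *Atp5d*, *Atp5g2*, *Atp5j*, *Atp5g1* and *Atpif1*, and only the neighbours *Atp5c1* and *Atp5d* overlapped between Ctrl libraries. *Atp5b* ranked 21 among the 12658 genes by mean Ctrl FPKM and *Atpif1* ranked 4616. In cKO, *Atp5g3* went from place 3 to place 5 among the 10 genes and *Atp5d* from place 6 to place 4. *Atp5g1* ranked 1366 among all genes tested in Ctrl and 1915 in cKO, while *Atp5a1* ranked 103 and 62.

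The positions of the others in GRCm38.p6 were chr18:77773768-77782869 on the plus strand for *Atp5a1* (12 exons, overlapping *Haus1*), chr10:128083307-128090388 on the plus strand for *Atp5b* (10 exons, overlapping *Mir677* and *Snord59a*), chr2:10056030-10080510 on the minus strand for *Atp5c1* (10 exons, overlapping *Gm23608*), chr10:80138698-80145828 on the plus strand for *Atp5d* (4 exons, overlapping *Cbarp*), chr5:145183704-145191541 on the minus strand for *Atp5j2* (4 exons) and chr4:132530555-132535450 on the minus strand for *Atpif1* (3 exons, overlapping *Gm12999*). Reads were estimated with the shortest matched GENCODE transcript of each gene. The smallest level of *Atp5g1*, in cKO replicate 1, came from about 363 reads, a counting error of about 5.25%. That of *Atpif1* came from about 133 reads, a counting error of about 8.67%. The matched transcripts of *Atp5g1* had 596 bases at the shortest and 4715 at the longest, and a longer transcript would give more reads. The longest exceeds the RefSeq span given above for *Atp5g1*, so the RefSeq and GENCODE models of this gene differ in extent. Overlapping genes were sought over the RefSeq spans only. For *Atp5b* the counting error was about 0.427%. These errors cover counting only, and the transcript lengths the authors used may differ.

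The genes of the complex that were not picked for this contrast give it a frame, although the list was written with earlier results of these data known. Of 9 other genes of the complex, 7 were called higher and 0 lower in cKO, where 12.0% of all genes tested were called higher and 13.8% lower. The median log2 difference was 0.31 against -0.006 over all genes tested, and 8 of the 9 were positive. *Atp5o*, which encodes the peripheral stalk subunit OSCP, went from 356.1 and 388.2 FPKM to 502.4 and 471.7 FPKM (log2 difference 0.39, SE 0.0729, adjusted p = 0.00897 by limma with Benjamini-Hochberg adjustment). *Atp5e* of the central stalk was 0.35 higher on the log2 scale (SE 0.0651, adjusted p = 0.00871 by limma). The peripheral stalk genes *Atp5h* and *Atp5f1* rose by 0.33 and 0.26 on the log2 scale, and the membrane genes *Atp5l*, *Usmg5* and *Atp5k* by 0.32, 0.31 and 0.28. Not called were *2010107E04Rik*, at 0.19 with an adjusted p of 0.0904 by limma, and *Atp5s*, at -0.07 with an adjusted p of 0.587 by limma. *Atp5s*, also named *Dmac2l*, had a Ctrl mean of 4.675 FPKM, where each of the others had 229.9 FPKM or more. Whether it is a part of the complex was not examined. *Atp5j* thus lay below the other peripheral stalk genes, all of which were higher in cKO. Instead of 7, limma called 0 of the 9 without Ctrl replicate 1, 1 without Ctrl replicate 2, 3 without cKO replicate 1 and 1 under quantile normalization, where 8 of the 9 had an unadjusted p under 0.05 with all libraries.

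Factors that assemble the enzyme and carriers that feed it were set beside the 10 genes. Of 5 assembly factors 4 were called higher, where 12.0% of all genes tested were, with a median log2 difference of 0.26. *1110001J03Rik*, also named *Fmc1*, rose by 0.46 (adjusted p = 0.00614 by limma), *Atpaf2*, a chaperone of the alpha subunit, by 0.29 (adjusted p = 0.0106 by limma), *Tmem70*, which takes part in placing subunit c, by 0.25 (adjusted p = 0.0219 by limma) and *Tmem242* by 0.21 (adjusted p = 0.0387 by limma). *Atpaf1*, a chaperone of the beta subunit, was at -0.05. Without Ctrl replicate 1 none of the 4 was called, and 1, 1 and 2 were called without Ctrl replicate 2, cKO replicate 1 and cKO replicate 2. The ADP/ATP carriers *Slc25a4* and *Slc25a5* and the phosphate carrier *Slc25a3* were at -0.10, 0.11 and 0.01, with 0 of 3 called by limma and 0 at an unadjusted p under 0.05.

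**Figure D3:**
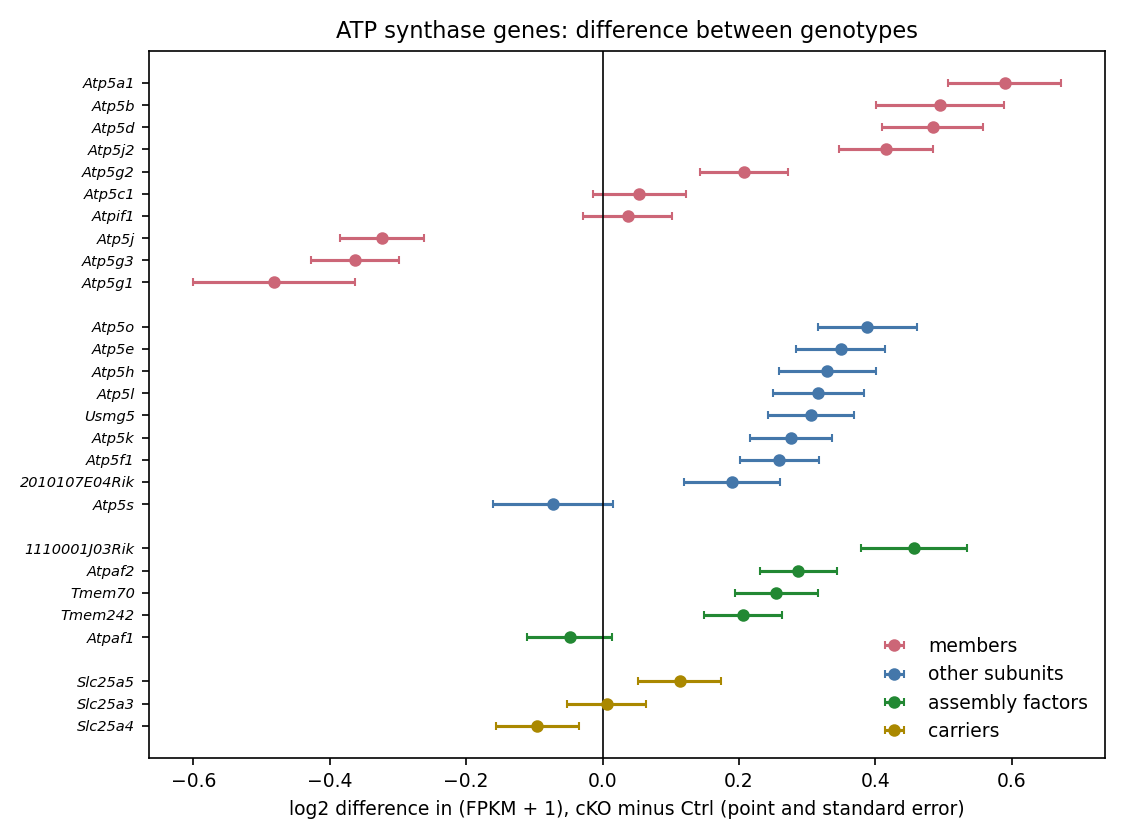
Log2 difference in FPKM + 1, cKO minus Ctrl, with its standard error from limma, for the 10 genes (named members in the key), 9 other genes of the complex, 5 assembly factors and 3 carriers. *Atp5j*, *Atp5g3* and *Atp5g1*, from -0.32 to -0.48, lay below every other gene drawn, the next lowest being *Slc25a4* at -0.10. The 10 genes, these included, were picked on this contrast.

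Among 65 tested genes of respiratory chain complexes I to IV, 55 were called higher and 1 lower, where 12.0% of all genes tested were called higher and 13.8% lower. The median log2 difference was 0.41, and 64 of the 65 had a positive sign. *Atp5a1*, *Atp5b*, *Atp5d* and *Atp5j2*, between 0.42 and 0.59, were thus above that median, while *Atp5g2* and *Atp5c1* at 0.21 and 0.05 were below it. The gene that fell was *Cox6a2*, the cytochrome oxidase isoform of heart and skeletal muscle, which was at 19.03 and 13.15 FPKM in Ctrl and at 1.25 and 1.15 FPKM in cKO. The 55 calls went to 12 without Ctrl replicate 1 and 29 without Ctrl replicate 2. The vacuolar ATPase, a related rotary enzyme that pumps protons in lysosomes, had 5 genes called higher and 1 called lower of 18 tested. The median log2 difference was 0.08. Without Ctrl replicate 1 or Ctrl replicate 2 none of the 5 was called, and 1 was called without cKO replicate 1 and 3 without cKO replicate 2.

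Markers of cell types differed between the genotypes to unlike extents. Higher and lower in the counts below are calls by limma, where 12.0% of all genes tested were called higher and 13.8% lower. Of 15 skeletal muscle markers 13 were tested and 13 fell, their summed level being 2860 and 1950 FPKM in Ctrl and 48.7 and 48.2 FPKM in cKO, with *Ckmt2* at 5.18 and 2.98 FPKM in Ctrl and at 0 in both cKO libraries. They were thus low in the same libraries as *Atp5g1*, *Atp5g3* and *Atp5j*. All 10 brown and beige adipocyte markers rose, with sums of 1660 and 1990 FPKM in Ctrl and 5250 and 4460 FPKM in cKO, and so were high in the same libraries as *Atp5a1*, *Atp5b*, *Atp5d* and *Atp5j2*. General adipocyte markers summed to 32100 and 30600 FPKM in Ctrl and to 24300 and 24400 FPKM in cKO, with 4 of 8 lower. Fibroblast progenitor markers were lower for 4 of 4, from 279 and 225 to 92.4 and 93.0 FPKM. B and T cell markers were higher for 4 of 4 each, with sums of 190 and 215 against 305 and 345 FPKM for B cells and 57.4 and 60.4 against 83.4 and 107 FPKM for T cells. Macrophage markers summed to between 125 and 144 FPKM in all libraries with 1 of 4 higher and 2 lower, endothelial markers to between 156 and 177 FPKM with 2 of 4 lower, and the 3 epithelial markers with values to at most 0.250 FPKM. In bulk tissue, fewer cells of a type and less RNA per cell cannot be told apart, and the part of these cell types in the levels of the ATP synthase genes was not tested. *Ucp1* over *Atp5b* FPKM was 0.215 and 0.264 in Ctrl and 0.690 and 0.650 in cKO.

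Differences between the libraries of the same genotype are not the contrast by which the genes were picked, and they too varied in direction among the 10 genes. The brown and beige markers were lower in replicate 1 than in replicate 2 of Ctrl and higher in replicate 1 than in replicate 2 of cKO for 10 of 10 genes, an order found for 16.8% of all genes tested. *Atp5a1*, *Atp5b* and *Atp5c1* had this order, as had 8 of the 9 other genes of the complex and 49 of 65 respiratory chain genes. *Atp5g1*, *Atp5g3*, *Atp5j* and *Atpif1* had the reverse order, with replicate 1 higher in Ctrl and lower in cKO, which was found for 31.5% of all genes tested, for 0 of the 9 other genes of the complex and for 2 of the 65 respiratory chain genes. *Atp5g2*, *Atp5d* and *Atp5j2* were higher in replicate 1 of both genotypes. The reverse order was thus that of 4 of the 10 genes (40.0%), near its share of all genes tested. The 3 genes that were lower in cKO were among the 4. The differences themselves were small for most of the genes. For *Atpif1* they were 0.09 and -0.02 on the log2 scale, where the counting error of its lowest library was about 8.67%. For *Atp5g3* they were 0.07 and -0.03 on the log2 scale and for *Atp5j* 0.03 and -0.09, against 0.35 and -0.20 for *Atp5g1* and -0.12 and 0.15 for *Atp5a1*. Among the genes called lower 46.9% had the reverse order, and among those called higher 15.0%, so the order was not unrelated to the contrast. The muscle markers were higher in Ctrl replicate 1 than in Ctrl replicate 2 for 13 of 13 genes, and in cKO they were higher in replicate 1 for 8 and lower for 5. All genes share the same 4 libraries, so these counts are a description of the libraries and no test was made.

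**Figure D4:**
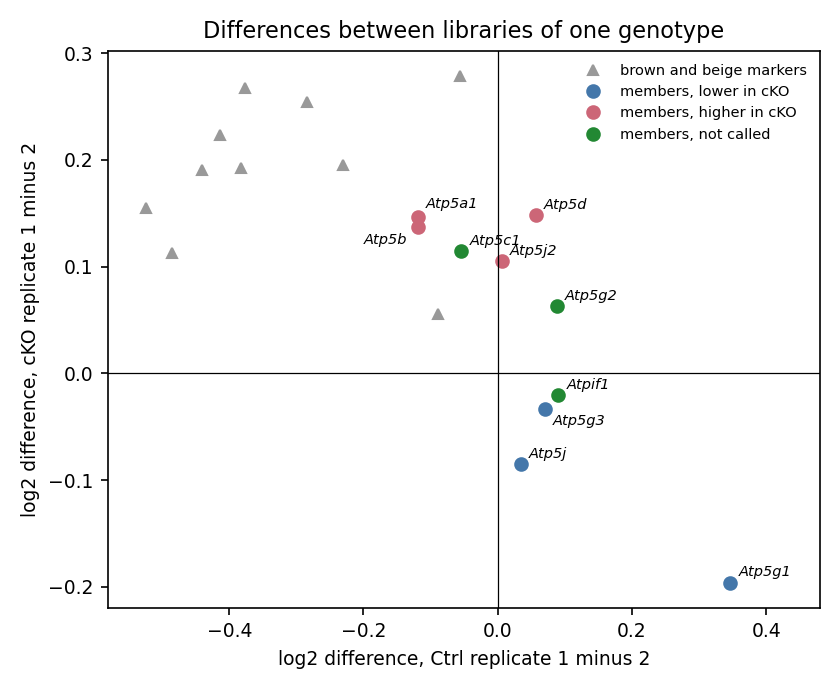
Log2 difference in FPKM + 1 between the libraries of the same genotype, Ctrl replicate 1 minus 2 on the horizontal axis and cKO replicate 1 minus 2 on the vertical axis, for the 10 genes (members in the key) and 10 brown and beige markers. The markers fill the upper left of the plot, and *Atp5g1*, *Atp5g3*, *Atp5j* and *Atpif1* lie at the lower right.

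Genes of the complex were left out when neighbours in pattern were sought, although the count of 3619 candidates includes them. The genes whose pattern over the 4 libraries was closest to that of *Atp5g1* were *Anxa3* at a Euclidean distance of 0.107 in centred log2(FPKM + 1), *Npdc1* at 0.136 and *Inmt* at 0.138. For *Atp5a1* they were *Srxn1* at 0.0243, *Cyc1*, the cytochrome c1 subunit of complex III, at 0.0321 and *Egln1* at 0.0354. *Cyc1* was at 330 and 349 FPKM in Ctrl and at 532 and 481 FPKM in cKO, and *Anxa3* at 51.0 and 42.4 FPKM in Ctrl and at 30.7 and 32.9 FPKM in cKO.

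How well reads can be assigned differs among the genes. Every 50-base window of the shortest matched transcript of *Atp5g3* and *Atp5d* was found in no other annotated gene. For *Atp5g1* this held for 34.0% of 547 windows, with 335 of them also in *Gm10039*, and for *Atp5g2* for 12.6% of 682 windows, with 596 in *Gm10175* and 392 in *Gm10231*. For the other genes it held for 83.9% (*Atpif1*) to 99.1% (*Atp5b*). The levels of *Atp5g1* and *Atp5g2* are therefore uncertain where reads match copies, whether such reads were split or counted for the gene. *Atp5g3*, which was lower in cKO by 22.3%, shared no window exactly. Only exact matches were sought, so copies with mismatches could not be found for any gene. The uncertainty of *Atp5g1* and *Atp5g2* extends to the ring sum, its makeup and the ratio of ring to catalytic genes. Of 15 genes that shared windows with the 10, *Haus1* and *Gabpa* have values here. *Gabpa*, on the opposite strand to *Atp5j* (chr16:84827871-84835857), was at 11.33 and 12.52 FPKM in Ctrl and 12.97 and 12.79 FPKM in cKO, and shared 45 of 693 windows with it. The library kit as described does not mark strand, so reads in these windows cannot be told apart.

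Promoters of 9 of the 10 genes, 12 promoters in all, were searched on both strands for short motifs of regulators of nuclear genes for mitochondria. The search ran from 250 bases before to 50 bases after the RefSeq start. *Atp5a1* was not searched, so its absence below does not mean that a motif is lacking. A gene is listed if any of its promoters matched, whereas the shares are of promoters. The NRF1 motif GCGCANGCG was found for *Atp5c1*, *Atp5g2*, *Atp5g3* and *Atpif1* and in 6.25% of all promoters. The ERR motif AAGGTCA was found for *Atp5g3* and *Atpif1* (4.72% of all promoters), the YY1 motif ATGGCGG for *Atp5b*, *Atp5j* and *Atpif1* (4.05%), the ETS motif CCGGAAG for *Atp5j* (8.86%) and the CRE motif TGACGTCA for none (1.79%). The NRF1 matches of a pair of ring genes are shown because these genes differed in opposite directions. Capitals mark the match, on the strand of the gene, and the RefSeq sequence is of GRCm38.p6.
Atp5g3, chr2:73911295-73911323, minus strand: agccgcaccgCGCTTGCGCgcccagcccc
Atp5g2, chr15:102671070-102671099, minus strand: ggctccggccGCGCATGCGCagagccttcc
The first match began at position 14 relative to a start site inside the gene span of *Atp5g3* and at position -42 relative to the start site of *Atp5g2*, where 2 matches on opposite strands overlap. A motif was thus present both for a gene that was lower in cKO and for one that was higher but not called. A match of these letters is a description of the sequence only.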

How the data were processed

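Polyadenylated RNA of ingWAT was sequenced by the authors as 50-base single-end reads, and the deposited table gives FPKM per gene and library (fragments scaled by transcript length and by mapped reads). The submitters' processing notes name HISAT2 2.0.4, RSEM 1.2.12 and the build mm10. Of 19030 gene IDs, 18977 were found in the RefSeq table (GRCm38.p6), 24 symbols had turned into dates, and no per-sample column was left unused. FPKM summed to between 484152 and 497839 per library. Depth was estimated from the steps between FPKM values of 299 short RNA genes as 17650000 to 18700000 reads. At these depths 85.0% to 89.6% of the values that amounted to few reads were whole within 0.1 of a read. Larger values were not used, and depth and a length offset were chosen to make this share largest. Since FPKM are not counts, count tests were not run.

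Samples were grouped by genotype from their titles. The 12658 genes that averaged 1 FPKM or more were compared on log2(FPKM + 1), a scale that understates differences of low genes, with limma 3.58.1 in R 4.3.3 (eBayes with trend, two-sided) and Benjamini-Hochberg adjustment. Calls are those at an adjusted p under 0.05. All 10 genes were named, as was each called gene among the other genes of the complex, the assembly factors and the carriers. The respiratory chain and vacuolar ATPase genes, chosen by symbol, were summarised by counts and medians, and *Cox6a2* was named after its values were seen. The 10 genes and all lists were chosen with earlier results of these data known. Neighbours in pattern were sought among genes outside the complex that averaged 20 FPKM or more. Reads were not remapped. Window sharing, coding sequences and motifs were computed with Python 3.11.15 and Biopython 1.88 from GENCODE and RefSeq sequences.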

Additional observations from a re-analysis of the deposited data

How the results depend on the processing

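Values were recomputed without a filter, with a floor of 5 on mean FPKM, with pseudocount 0.1, with eBayes without trend, after quantile normalization or median-of-ratios scaling, with a replicate block, and leaving out each library. *Atp5c1* was at -0.06 under quantile normalization and at -0.004 without cKO replicate 1, and *Atpif1* at -0.008 without Ctrl replicate 2. Quantile normalization gave -0.55 for *Atp5g3*, -0.41 for *Atp5j*, 0.10 for *Atp5g2*, 0.43 for *Atp5a1*, 0.28 for *Atp5b*, 0.30 for *Atp5d* and 0.21 for *Atp5j2*, and *Atp5b* and *Atp5j2* lost their calls. No filter lost *Atp5b* and *Atp5g1*, and eBayes without trend and leaving out cKO replicate 1 each lost *Atp5g1*. With no filter 667 genes were called higher and 1095 lower, with 3 other genes of the complex, 1 assembly factor, 33 respiratory chain genes and 1 vacuolar ATPase gene higher. With the floor of 5 FPKM, 0 vacuolar ATPase genes were lower. Under quantile normalization 1 other gene of the complex was higher and 1 carrier lower. Without trend 2 assembly factors and 1 vacuolar ATPase gene were higher. With a library left out, calls ranged from 358 to 1071 genes higher and 519 to 1434 lower, from 0 to 7 other genes of the complex, 0 to 2 assembly factors, 12 to 53 respiratory chain genes and 0 to 3 vacuolar ATPase genes higher, the lowest each without Ctrl replicate 1, where the lone Ctrl library is assumed to vary like the cKO libraries. The log2 ratio of ring to catalytic genes was -0.68, from -0.57 to -0.78 with a library left out and -0.62 under quantile normalization. *Slc22a3* was at -0.83 and from -0.80 to -0.86 with a library left out. Deviations of same-numbered replicates from their group means had a correlation of 0.0148 over genes. The labels do not say whether samples were paired, and this value cannot decide it. With the replicate block 1594 genes were higher and 1789 lower. It gave 7 other genes of the complex, 3 assembly factors, 48 respiratory chain genes and 5 vacuolar ATPase genes higher. The cause of these changes was not tested.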
